A study of Oryza sativa with 6 samples.

Results

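The *SPL* genes of the miR156 module are the rice genes of the SBP-box family whose transcripts carry a target site for the microRNA miR156. They were chosen by 10 locus names of the MSU rice annotation, *SPL2*, *SPL3*, *SPL4*, *SPL7*, *SPL11*, *SPL13*, *SPL14*, *SPL16*, *SPL17* and *SPL18*, without their relative *SPL12*, which is given beside them. Of the 10 loci, 9 had a gene entry among the 35018 entries of the gene table, and *SPL7* was not analysed here. A further entry, MSTRG.25216, lay antisense to *SPL14*, which gave 10 gene entries with 18 transcripts among 57680 transcripts in all. The gene descriptions in the table gave the same *SPL* symbol for each of the 9 loci.

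Leaf RNA of the rice line CA21 was sequenced in 6 libraries. GLY1, GLY2 and GLY3 came from seedlings that were sprayed with glyphosate at 2 mg/ml at the third-leaf stage, and CK1, CK2 and CK3 came from CA21 plants with no spray. CA21 is a single glyphosate-tolerant, non-transgenic line bred after mutagenesis, so every library carries the same background, and no sensitive line is among these libraries. Nothing in the labels says that replicates came from separate plants, so p-values measure the spread between these samples, which may be technical.

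SPL proteins are plant transcription factors that bind DNA through the SBP domain. In young plants miR156 is abundant, pairs with the *SPL* transcripts and lowers them by cleavage and by blocking translation. As the plant ages miR156 declines, SPL proteins accumulate, and they drive the change from juvenile to adult leaves, activate *MIR172* genes and shape tillering, panicle branching and grain form. Glyphosate blocks EPSP synthase, an enzyme of the shikimate pathway from which aromatic amino acids are made.

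Forms of miR156 are shown because this microRNA defines the module. They are those in the study's lists of differentially expressed miRNAs and of degradome targets. The study's full list of known miRNAs was not searched, so they need not be all the forms in these leaves. Their capitals mark the stretch that spans bases 2 to 8 of osa-miR156a, the seed, and the last line is the sequence that would pair with osa-miR156a along its whole length, with the complement of the seed in capitals.
osa-miR156a: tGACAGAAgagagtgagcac
osa-miR156a_L+1: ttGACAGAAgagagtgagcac
bdi-miR156b-5p_L+2: cttGACAGAAgagagtgagcac
osa-miR156f-3p: gctcacttctctttctgtcagc
perfect complement of osa-miR156a: gtgctcactctcTTCTGTCa
The first 3 differ only by added bases at the 5′ end, and the -3p form comes from the other arm of the hairpin and does not hold the stretch. The sequences are written with T as in the study's tables. The abundance of these small RNAs was not analysed here, and the target sites in the *SPL* transcripts were not looked up, so nothing below measures miR156 itself.

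The depth implied by coverage divided by FPKM was 3.84 to 4.40 Gb in GLY libraries and 3.43 to 3.799 Gb in CK libraries. It is a scaling value of the deposited levels, not the total that was sequenced or mapped. The valid bases that the study reported were far more, and more in every CK library than in any GLY library. Levels are FPKM, fragments scaled by transcript length and by sequencing depth, and all changes are log2 fold changes of GLY minus CK on the log2(FPKM + 1) scale, which understates the change of weakly expressed genes. Limma was run on the entries whose mean reached 0.5 FPKM, and a gene passed when its Benjamini-Hochberg adjusted p over all 19316 entries tested was under 0.05. In all, 24.9% of the entries passed, 19.3% higher and 5.65% lower in GLY, and the median change over all of them was 0.20. After median-of-ratios scaling this median was -0.02, and 49.4% of the entries that passed were higher in GLY, against 77.3% in the FPKM as deposited. The leaf genes for RuBisCO small subunit, RuBisCO activase and a chlorophyll-binding protein were high in every library, between 149.7 and 33000.3 FPKM, and *OSH1*, a homeobox gene of the shoot meristem, was listed at 0 in 5 libraries and at 0.0134 FPKM in CK2. Of these 5 leaf entries 3 fell, 2 for the small subunit (-0.80 and -0.45, adjusted p = 0.00124 and 0.0171 by limma) and that for the activase (-0.51, adjusted p = 0.00359), and the chlorophyll-binding one rose (0.26, adjusted p = 0.0255). Fitted by limma without the filter, all of these calls were lost, with adjusted p of 0.223, 0.312, 0.787 and 0.590 in the same order. Summed, they had 35009 to 36967 FPKM in GLY and 47783 to 49762 FPKM in CK, without overlap, and the part of this in the *SPL* values was not tested. In bulk leaf RNA, fewer cells of a type and less RNA per cell cannot be told apart.

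Among the 5 members tested, which leave out *SPL12*, only *SPL3* passed the test, and it was higher in GLY. *SPL11* lay just outside the threshold, *SPL14* was also separated between the groups without passing, and *SPL2* and *SPL4* overlapped between the groups. *SPL13*, *SPL16*, *SPL17* and *SPL18* had a mean under 0.5 FPKM and were not tested. The count was 1 of 5 tested members, beside the 24.9% of all entries. At the threshold of the study, a log2 fold change of 1 or more in either direction with P under 0.05, 0 of the 5 members passed by limma, beside 8.98% of all entries, and 0 passed in an ordinary linear model, while 2 of 5 had an unadjusted P under 0.05, beside 38.6% of all entries. The study applied its threshold to results of DESeq. Here it was applied to log2(FPKM + 1), where changes of weakly expressed genes are understated, so the calls are not those of the study. The members' median change was 0.29, beside the 0.20 over all entries.

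**Figure D1:**
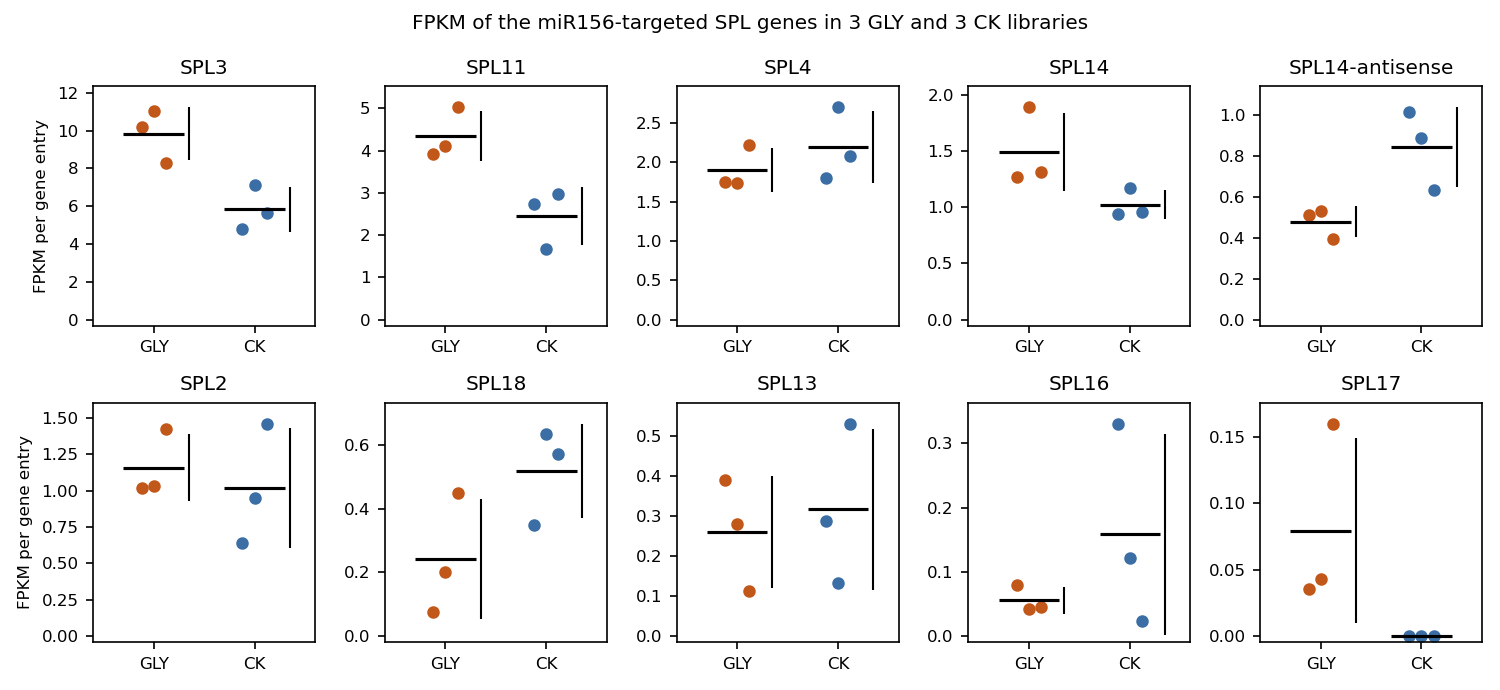
FPKM of the 10 gene entries, each panel with its own linear axis and with the 3 GLY libraries left of the 3 CK libraries. Points are libraries, horizontal lines are means and vertical lines are 1 SD on each side. The GLY points lie above all CK points for *SPL3*, *SPL11*, *SPL14* and *SPL17* and below them for the entry antisense to *SPL14*.

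*SPL3* was the most abundant member in every library. It is known in rice, together with *SPL12*, for the control of crown root development. The gene (LOC_Os02g04680) was placed on chromosome 2 from 2105511 to 2111028, on the plus strand, and had 10.2, 11.02 and 8.29 FPKM in GLY1, GLY2 and GLY3, against 4.78, 7.09 and 5.61 FPKM in CK1, CK2 and CK3. The lowest GLY library was above the highest CK library, as it was for 34.3% of all entries tested. The means were 9.83 ± 1.40 FPKM in GLY and 5.83 ± 1.17 FPKM in CK (SD, n = 3 each), a ratio of 1.69. Fitted by limma, *SPL3* rose by 0.67 on the log2 scale (SE 0.17, 95% interval 0.26 to 1.08, adjusted p = 0.0352). The call was lost when CK1, CK3, GLY1 or GLY2 was left out, with adjusted p of 0.0892, 0.0984, 0.0962 and 0.102, and after median-of-ratios scaling, where the change was 0.41 with an adjusted p of 0.144. *SPL3* made up 43.5% to 54.4% of the summed FPKM of the 9 members in GLY and 39.5% to 49.0% in CK, ranges that overlap.

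*SPL11*, the second most abundant member, moved by a similar amount but did not pass. The gene (LOC_Os06g45310, chromosome 6 from 27387537 to 27391266, minus strand) had 3.93, 4.10 and 5.03 FPKM in the 3 GLY libraries, against 2.74, 1.68 and 2.96 FPKM in the 3 CK libraries. All GLY values were above all CK values. The fitted change was 0.64 (SE 0.18, 95% interval 0.20 to 1.09), and the adjusted p of 0.0512 by limma lay just outside the threshold. The adjusted p was 0.0481 with the minimum mean set at 1 FPKM, which put *SPL11* past the threshold. It was 0.0968 without a filter, 0.101 without moderation, 0.0658 to 0.128 with a library left out, and 0.185 after median-of-ratios scaling, where the change was 0.42.

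*SPL14*, also known as *IPA1* or *WFP*, limits tiller number and promotes panicle branching in rice. The gene (LOC_Os08g39890, chromosome 8 from 25274350 to 25278696, minus strand) had 1.27, 1.89 and 1.31 FPKM in GLY and 0.935, 1.17 and 0.955 FPKM in CK. The groups did not overlap, and the fitted change of 0.29 (SE 0.14, 95% interval -0.05 to 0.64, adjusted p = 0.180 by limma) did not pass. The change was 0.13 after median-of-ratios scaling and 0.18 without GLY2. Together with *SPL3* and *SPL11*, 3 of the 5 tested members had GLY libraries wholly above CK libraries, beside 34.3% of all entries, and 0 had them wholly below, beside 10.6%.

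*SPL4* and *SPL2* were expressed at 0.642 to 2.70 FPKM and showed no separation. *SPL4* (LOC_Os02g07780, chromosome 2 from 4073883 to 4078058, plus strand) had 1.75, 1.74 and 2.22 FPKM in GLY, against 1.81, 2.70 and 2.09 FPKM in CK, with a fitted change of -0.13 (95% interval -0.49 to 0.22, adjusted p = 0.537 by limma). *SPL2* (LOC_Os01g69830, chromosome 1 from 40331733 to 40335718, plus strand) had 1.02, 1.03 and 1.43 FPKM in GLY, against 0.642, 0.947 and 1.46 FPKM in CK, with a fitted change of 0.11 (95% interval -0.35 to 0.57, adjusted p = 0.695 by limma). CK libraries alone spanned both the lowest and the highest *SPL2* value. The sign of the *SPL2* value was negative after median-of-ratios scaling and without CK1, at -0.04 and -0.02.

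The 4 members that were not tested include the grain-shape genes of the module. *SPL16*, known as *GW8* for its effect on grain width, had 0.0787, 0.0416 and 0.0458 FPKM in GLY and 0.331, 0.121 and 0.0238 FPKM in CK, where CK1 was high and CK3 was the lowest of all 6 libraries. *SPL13*, known as *GLW7* for its effect on grain length, had 0.390, 0.280 and 0.113 FPKM in GLY and 0.288, 0.132 and 0.532 FPKM in CK. *SPL18*, which acts on grain weight through *DEP1*, had 0.0767, 0.202 and 0.449 FPKM in GLY and 0.351, 0.634 and 0.572 FPKM in CK. In all 3 the groups overlapped, and for *SPL18* only GLY3 reached into the CK range. *SPL17*, which acts with *SPL14* on branching, had 0.0357, 0.0426 and 0.160 FPKM in GLY and was listed at 0 in all CK libraries. The GLY values of *SPL17* correspond to 232, 267 and 906 aligned bases (coverage per base times transcript length), the equivalent of a few reads in each library. Fitted without the filter, the adjusted p of these 4 by limma ran between 0.267 for *SPL17* and 0.822 for *SPL13*. These loci lay on chromosome 8 from 26501167 to 26506218 (*SPL16*, LOC_Os08g41940), chromosome 7 from 19099675 to 19103294 (*SPL13*, LOC_Os07g32170), chromosome 9 from 19643463 to 19648233 (*SPL18*, LOC_Os09g32944) and chromosome 9 from 18918260 to 18921656 (*SPL17*, LOC_Os09g31438).

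Because FPKM is scaled by length, the members can be ordered by level within each group. In GLY, *SPL3* stood above *SPL11*, and *SPL11* above *SPL4*, each without overlap between neighbours over the 3 libraries. *SPL4*, *SPL14* and *SPL2* each overlapped their neighbour in that order, *SPL2* stood clear of *SPL13*, and *SPL13*, *SPL18*, *SPL17* and *SPL16* overlapped one another in turn. In CK the order began likewise with *SPL3*, but *SPL11* overlapped *SPL4*, and *SPL4* was clear of *SPL14*. *SPL14* overlapped *SPL2* and *SPL2* was clear of *SPL18*, followed by *SPL13* and *SPL16*, which overlapped in turn, and by *SPL17*. By mean FPKM, *SPL3* lay at the 87.2nd percentile of all entries and *SPL11* at the 74.0th. Summed over the 9 members, the FPKM were 18.7, 20.3 and 19.0 in GLY and 11.9, 14.5 and 14.2 in CK, sums in which *SPL3* had the largest part.

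At the level of transcripts, none of the miR156-targeted *SPL* models passed. Of the 17 sense transcripts 11 were tested, 0 had an adjusted p under 0.05 by limma or in an ordinary linear model, beside 6.19% of all 32646 transcripts tested, and 0 passed the threshold of the study, beside 9.33%. An unadjusted P under 0.05 was found for 1 of the 11, beside 22.5% of all transcripts. It was the single *SPL11* model, LOC_Os06g45310.1, with an adjusted p of 0.148. GLY and CK did not overlap for 2 of the 11, LOC_Os06g45310.1 and MSTRG.25215.1 of *SPL14*, both higher in GLY, beside 22.3% of all transcripts.

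The signal of *SPL3* was spread over 5 models, and the assignment to them varied widely between libraries. The annotated models LOC_Os02g04680.1 and LOC_Os02g04680.2 have 6 exons each and differ in length by 3 bases, so reads can hardly be told apart between them. LOC_Os02g04680.1 had 3.35, 3.71 and 5.99 FPKM in GLY and 1.66, 3.47 and 1.75 FPKM in CK, and LOC_Os02g04680.2 had 1.95, 1.44 and 3.67 FPKM in GLY and 2.80, 0.401 and 1.57 FPKM in CK. Each overlapped between the groups, with adjusted p of 0.230 and 0.600 by limma. The sum of both, chosen after their values were seen, was 5.29, 5.14 and 9.66 FPKM in GLY and 4.46, 3.87 and 3.32 FPKM in CK. The groups did not overlap in this sum (p = 0.1, exact permutation test, two-sided, and no smaller p is possible with 3 libraries in each group). In GLY3 this sum was above the 8.29 FPKM of the *SPL3* gene entry, so the FPKM of a gene entry is not the sum of its transcripts.

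The other 3 *SPL3* models were assembled from the reads and differ from the annotation in their splice junctions. MSTRG.8436.1 had 3.97 FPKM in GLY1, 31.0% of the summed FPKM of the *SPL3* models in that library, and was listed at 0 in the other 5 libraries. It reached the minimum mean, and so the test, only through GLY1. MSTRG.8436.4 had 1.72, 3.96 and 1.38 FPKM in GLY and 1.24, 1.87 and 2.07 FPKM in CK, and MSTRG.8436.5 had 1.82, 4.67 and 0.622 FPKM in GLY and 0.7498, 3.32 and 1.74 FPKM in CK. Both overlapped between the groups, and GLY2 was the highest library for each. *SPL4* had 3 models, of which the assembled MSTRG.8661.3 took 80.8%, 29.1% and 40.3% of the *SPL4* sum in GLY and 51.4%, 38.1% and 67.5% in CK. The annotated LOC_Os02g07780.1 took 0%, 36.05% and 15.7% in GLY and 27.3%, 38.1% and 4.80% in CK. For all 8 models of *SPL3* and *SPL4* the shares overlapped between the groups (exact permutation tests over libraries, two-sided, p from 0.4 to 1).

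**Figure D2:**
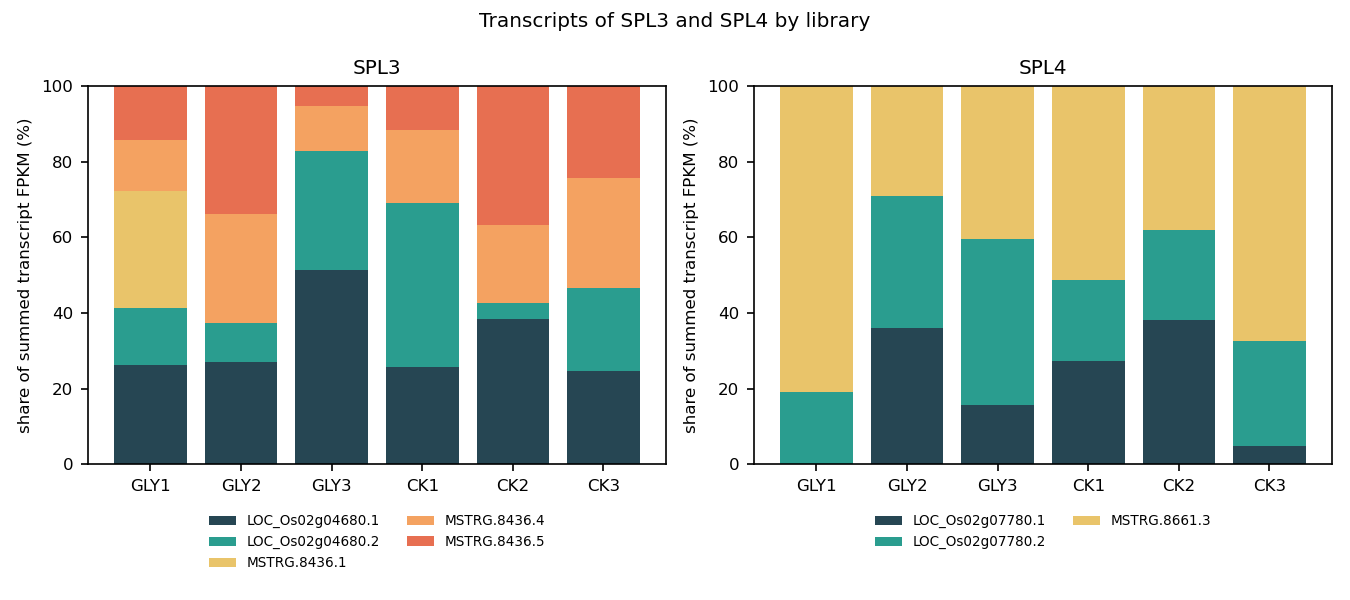
Share of each transcript in the summed FPKM of its gene, in percent, for *SPL3* (5 models) and *SPL4* (3 models), with the GLY libraries left of the CK libraries. The segments differ as much between libraries of 1 group as between groups, and MSTRG.8436.1 takes 31.0% in GLY1 and none elsewhere.

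At *SPL14* hardly any signal was assigned to the annotated model, and a further transcript was assembled on the other strand. LOC_Os08g39890.1, with 3 exons, was listed at 0 in all libraries but CK3, where it had 0.0332 FPKM, and the signal lay in the assembled MSTRG.25215.1, with 2 exons. MSTRG.25215.1 had 1.39, 2.06 and 1.43 FPKM in GLY and 1.02, 1.28 and 1.01 FPKM in CK, a change of 0.31 with an adjusted p of 0.382 by limma. The antisense MSTRG.25216.1, with 2 exons on the plus strand (chromosome 8 from 25275333 to 25279826), shares 3201 bases of span with it. It had 0.512, 0.531 and 0.393 FPKM in GLY and 1.01, 0.885 and 0.632 FPKM in CK.

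The antisense entry was thus low where the sense entry was high, with no overlap between groups in either. As a gene entry its change was -0.31 (SE 0.14, 95% interval -0.66 to 0.03, adjusted p = 0.160 by limma), which did not pass. Its mean was under 0.5 FPKM in GLY, so it reached the minimum only through CK. Among the 1203 antisense transcripts tested, 11.3% were lower in GLY without overlap, and their median change was 0.14. The ratio of antisense to sense FPKM was 0.369, 0.257 and 0.275 in GLY and 0.991, 0.694 and 0.625 in CK. This restates the separation of both entries, so no test of the ratio is used as support. Whether the library kit kept the strand is not given in the sources used here. Without strand, reads of *SPL14* and of its antisense partner cannot be told apart where they overlap.

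**Figure D3:**
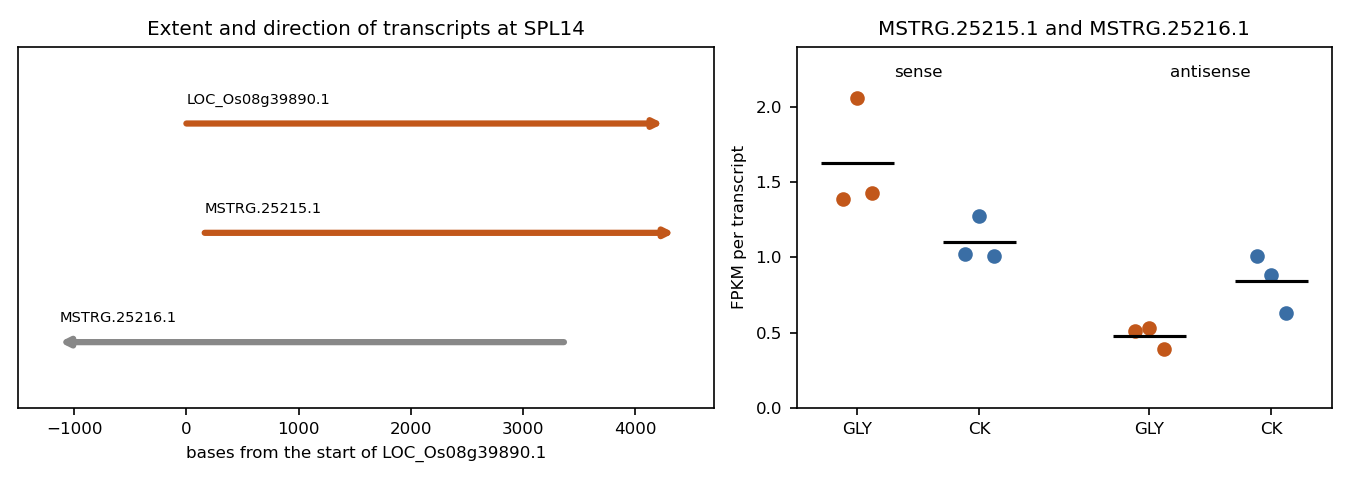
Left, the extent and direction of the 3 transcripts at *SPL14*, in bases from the start of the annotated model. Right, FPKM of the sense MSTRG.25215.1 and the antisense MSTRG.25216.1 in each library with group means. The sense points of GLY lie above those of CK, and the antisense points of GLY lie below them.

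*SPL12* and the SBP-box genes that lack a miR156 site show what the rest of the family did in the same leaves. *SPL12* (LOC_Os06g49010) is a further miR156 target and had 1.75, 1.62 and 1.51 FPKM in GLY, against 0.968, 0.565 and 0.711 FPKM in CK. It rose by 0.59 on the log2 scale (SE 0.13, adjusted p = 0.0244 by limma), and this call was lost after median-of-ratios scaling (adjusted p = 0.0721) and when any library but CK1 was left out, with adjusted p between 0.0530 and 0.0779. Of the 8 SBP-box genes without a site, 6 were listed and 4 tested. Among these, 2 rose and 0 fell, beside 19.3% and 5.65% of all entries. Their median change was 0.52, beside 0.29 for the miR156-targeted members, without *SPL12*, and 0.20 for all entries. These medians depend on the scale. At a pseudocount of 0.1 the members' median was 0.49, and *SPL1*, *SPL9*, *SPL6* and *SPL15* changed by 1.49, 0.95, 0.15 and 0.10.

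Both genes without a site that rose did so by more than *SPL3*. *SPL1* had 15.8, 14.2 and 15.6 FPKM in GLY and 6.31, 4.38 and 5.53 FPKM in CK, a rise of 1.35 (SE 0.14, adjusted p = 0.00262 by limma). *SPL9*, which in rice acts in copper homeostasis and antiviral defence, had 34.6, 29.3 and 26.4 FPKM in GLY and 17.7, 13.9 and 15.0 FPKM in CK, a rise of 0.91 (SE 0.14, adjusted p = 0.00847 by limma). *SPL6*, which represses a branch of the endoplasmic reticulum stress response in rice panicles, and *SPL15* changed by 0.14 and 0.09, with adjusted p of 0.350 and 0.432. All 4 had higher levels than any miR156-targeted member but *SPL3* in every library. Whether the change differed between genes was not tested.

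*SPL8*, the liguleless gene *LG1*, which is needed for the ligule at the base of the leaf blade, stood out by its low GLY values. It had 0.0315 and 0.0163 FPKM in GLY1 and GLY2 and was listed at 0 in GLY3, against 0.969, 0.872 and 0.464 FPKM in CK. Its mean was under the minimum, so it was not tested with the others. Fitted without the filter it fell by 0.79 on the log2 scale (adjusted p = 0.0226 by limma), and it was singled out after its values were seen. *SPL19* had 0.174 to 0.378 FPKM in GLY and 0.148 to 0.378 FPKM in CK.

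**Figure D4:**
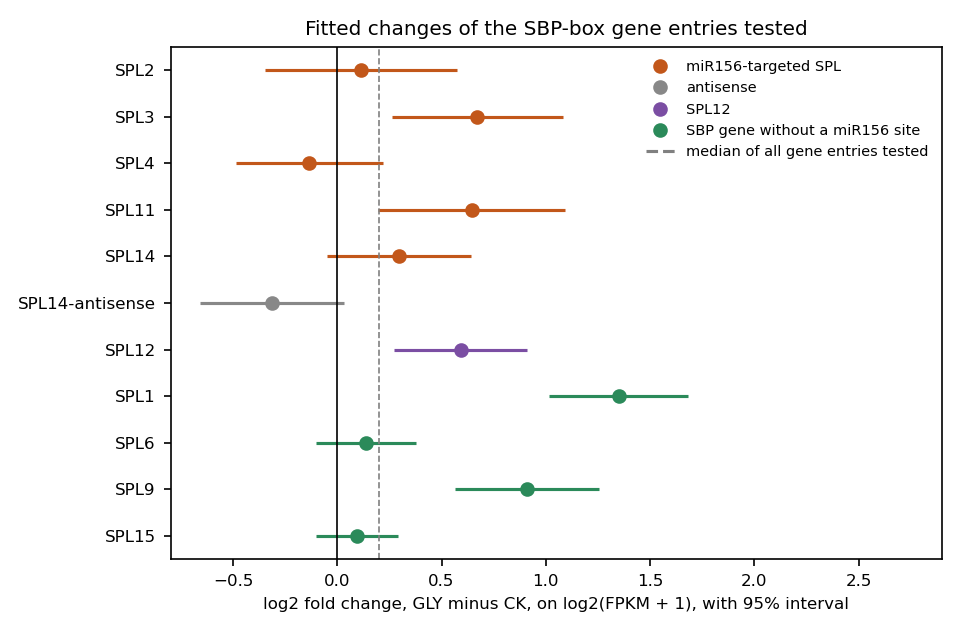
Fitted log2 fold changes of GLY minus CK on log2(FPKM + 1), with 95% intervals, for the tested *SPL* entries. The dashed line is the median of all 19316 entries, 0.20. *SPL3*, *SPL12*, *SPL1* and *SPL9* passed the test, and the largest change is that of *SPL1*, 1.35.

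Of the genes that work with SPL proteins or downstream of them, *D3*, *WRKY45* and *GW7* rose. Of 11 such genes fixed as a list, 9 were listed and 8 tested, 3 rose and 0 fell, beside 19.3% and 5.65% of all entries, with a median change of 0.42. *GW7* is among the 3 although it reached the minimum mean only through GLY, where it was high. At a minimum mean of 1 FPKM the count was 2, without *GW7*. *D3*, the F-box protein of strigolactone signalling through which the SPL14 repressor D53 is degraded, had 15.8, 15.4 and 15.4 FPKM in GLY and 5.01, 5.97 and 5.56 FPKM in CK, a rise of 1.34 (adjusted p = 0.000866 by limma). *WRKY45*, a defence regulator whose promoter phosphorylated SPL14 binds in infected rice, had 70.4, 70.8 and 44.0 FPKM in GLY and 15.9, 12.2 and 17.8 FPKM in CK, a rise of 1.93 (adjusted p = 0.00432 by limma).

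*GW7*, a grain-shape gene that SPL16 represses in young panicles, had 1.61, 1.37 and 1.14 FPKM in GLY and 0.107, 0.216 and 0.316 FPKM in CK, and it rose by 0.97 (adjusted p = 0.00760 by limma). Its CK mean of 0.213 FPKM was under the minimum, so *GW7* entered the test only through GLY, where it was high. In these libraries *SPL16* itself was at most 0.331 FPKM, and *DEP1*, a target of SPL14 and SPL18 in panicles, was at most 0.208 FPKM. *D53* had a value of -0.74 and *D14*, the strigolactone receptor, a value of 0.48, with adjusted p of 0.284 and 0.339. *IPI1*, a ubiquitin ligase of SPL14, and *OTUB1*, a deubiquitinase that acts on it, had values of 0.36 and 0.20 and adjusted p of 0.541 and 0.462. The DELLA gene *SLR1* was listed at 0 in 4 libraries and had 60.3 FPKM in GLY1 and 38.5 FPKM in CK3. Its change of 0.21 was therefore not interpreted, but it is counted among the tested genes, enters their median and is plotted with them.

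The miR172 targets of the AP2 family and the flowering genes lie downstream of SPL proteins in the ageing pathway. Of 9 listed, 6 were tested, 1 rose and 1 fell, beside 19.3% and 5.65% of all entries, with a median change of 0.34. The other 3 had means under the minimum and at most 0.895 FPKM in any library. *SHAT1*, an AP2 gene of seed shattering, had 14.5, 11.4 and 12.8 FPKM in GLY and 7.37, 7.25 and 8.82 FPKM in CK and rose by 0.66 (adjusted p = 0.0165 by limma). The call was lost after median-of-ratios scaling (adjusted p = 0.108) and without CK1 or CK2 (adjusted p of 0.0556 and 0.0508).

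*MADS18*, a gene of the *AP1* family, had 3.42, 2.94 and 3.42 FPKM in GLY and 5.31, 6.20 and 6.59 FPKM in CK, and fell by 0.72 (adjusted p = 0.00843 by limma). *MADS14*, another *AP1* family gene, overlapped between the groups, with 0.737 to 1.22 FPKM in GLY and 0.575 to 1.66 FPKM in CK. The count of 2 past the threshold was 1 without CK1 or CK2 and 4 without GLY3. The AP2 genes *IDS1*, *RSR1* and *SNB* had values of 0.38, 0.68 and 0.31 and did not pass.

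Of 6 genes that make or use microRNAs, all were tested, 2 rose and 0 fell, beside 19.3% and 5.65% of all entries, with a median change of 0.26. *DCL1*, the enzyme that cuts microRNAs from their hairpins, had 9.98, 9.47 and 8.91 FPKM in GLY and 6.97, 7.61 and 7.18 FPKM in CK and rose by 0.34 (adjusted p = 0.0383 by limma). *AGO1d*, an Argonaute gene, had 2.66, 2.75 and 2.77 FPKM in GLY and 2.00, 1.43 and 1.55 FPKM in CK and rose by 0.49 (adjusted p = 0.0280 by limma). After median-of-ratios scaling the value was 0.07 for *DCL1* (adjusted p = 0.609) and 0.29 for *AGO1d* (adjusted p = 0.134), while *AGO1a*, at -0.21 without scaling, was -0.49 (adjusted p = 0.0140) and passed as lower in GLY. The *DCL1* call was lost when any 1 library was left out (adjusted p from 0.0550 to 0.108), and the *AGO1d* call when any but CK1 was (adjusted p from 0.0705 to 0.0844). *AGO1a*, *AGO1b*, *AGO1c* and *HEN1* ran from -0.21 to 0.35 and did not pass.

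**Figure D5:**
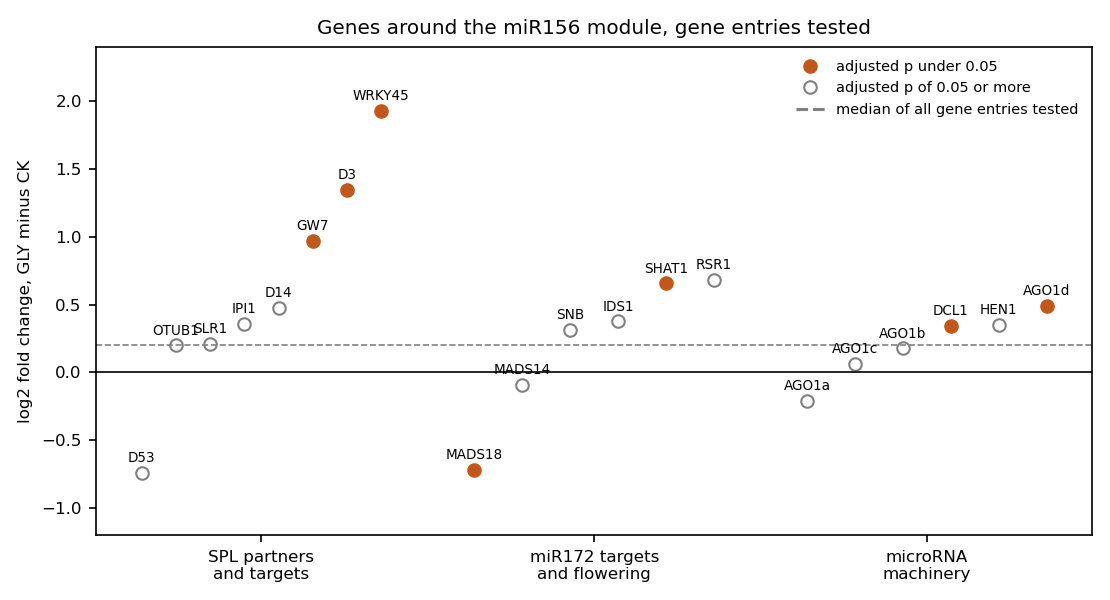
Fitted log2 fold changes of GLY minus CK for the tested genes of the 3 lists around the module. Filled points passed at an adjusted p under 0.05, open points did not, and the dashed line is the median of all entries, 0.20. *WRKY45* is the highest point at 1.93 and *D53*, which did not pass, the lowest at -0.74.

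Markers of other tissues differed between the groups in part. Of 2 root markers, the silicon transporter gene *LSI1* had 5.71, 8.27 and 9.06 FPKM in GLY and 14.7, 12.8 and 15.3 FPKM in CK and fell (-0.83, adjusted p = 0.0219 by limma), and *LSI2* was listed at 0 in 5 libraries and at 0.0170 FPKM in GLY3. Of 6 floral homeotic genes 2 were tested, *MADS58*, which rose (0.87, adjusted p = 0.0112) and reached the minimum mean only through GLY, and *MADS16*, which fell (-0.67, adjusted p = 0.0253). The *MADS16* call was lost without the filter (adjusted p = 0.0578 by limma). The summed level of all 6 was 2.53 to 2.63 FPKM in GLY and 2.47 to 3.76 FPKM in CK. The part of these differences in the *SPL* values was not tested.

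The entries whose profile over the 6 libraries lay nearest to that of *SPL3* were LOC_Os02g36740, a zinc finger gene, LOC_Os04g53810, described as a leucoanthocyanidin reductase, and LOC_Os08g32610, an armadillo repeat gene. They had Euclidean distances of 0.0865, 0.115 and 0.143 between centred log2(FPKM + 1) profiles, among 16202 annotated entries compared. LOC_Os04g53810 had 28.0, 28.5 and 22.7 FPKM in GLY and 14.4, 19.2 and 15.1 FPKM in CK. GLY2 was the highest and CK1 the lowest library, as for *SPL3*, which follows from its choice by likeness.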

How the data were processed

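Ribosomal RNA was removed by the authors, who mapped paired-end reads to the Nipponbare genome (named as IRGSP build 5.0) with MSU gene models. Transcripts were assembled with StringTie and their levels calculated with Ballgown. They deposited FPKM per gene entry and per transcript for each library, and the coverage per base of each transcript, a signal that is not divided by depth. The median over transcripts of coverage divided by FPKM gave the depth implied by each library's scaling. No counts were used, so the spread between 3 libraries gives the precision. Coordinates are those of the deposited tables.

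log2(FPKM + 1) was fitted with limma 3.58.1 (trend, moderated, two-sided) in R 4.3.3, without covariate. Only entries and transcripts whose mean reached 0.5 FPKM were tested, and p-values adjusted over all of them. Single values were tested by exact permutation over libraries. The fit was tested on simulated data.

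The members, lists and tests were chosen with earlier results of these data known. All members are named, and of the other lists the genes past an adjusted p of 0.05 and the defining markers. *SPL6*, *SPL8*, *SPL15*, *SPL19* and the other genes given without a call fall outside this rule. Likeness to *SPL3* was measured by Euclidean distance over 6 libraries. The alternatives covered the pseudocount (0.1), the filter (none, or 1 FPKM), median-of-ratios scaling, the Ballgown library-size covariate, no moderation, a block for the replicate number, and the removal of each library. *MIR156* loci and small RNA were not analysed here, and 1 more gene first fixed in the flowering list is neither counted nor reported here.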

Additional observations from a re-analysis of the deposited data

How the results depend on the processing

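For the *SPL* members, 200 of 227 values of single genes and transcripts under an alternative kept their sign and their side of the threshold, 17 changed sign, 9 lost the call and 1 gained it. Only *SPL3* had a call to lose, and it lost it in 9 of 13 settings, so for the others keeping their side says little. Genes with a single transcript enter the 227 both as gene and as transcript. The count of members past the adjusted p was 1, and it was 0 without a filter, with the library-size covariate, with median-of-ratios scaling and without moderation, 2 at a minimum mean of 1 FPKM, and 0 to 1 with a library left out. The adjusted p of *SPL3* was 0.0624 without a filter, 0.0760 without moderation and 0.899 with the covariate. The members' median change of 0.29 was 0.49 at a pseudocount of 0.1, 0.11 without a filter, 0.13 with median-of-ratios scaling and 1.09 with the covariate. No member gene or transcript passed the threshold of the study, and no member transcript the adjusted p, under any alternative.

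The library-size covariate had a correlation of 0.988 with the treatment, so the 2 can hardly be separated, and in that fit 0 of all entries passed the adjusted p, also 0 in each of the other 4 lists. It turned the values of *SPL4* to 1.09, *SPL11* to -0.24, LOC_Os02g04680.2 to -1.50, MSTRG.8436.4 to -0.20, MSTRG.8661.3 to 2.00, MSTRG.25215.1 to -0.15, *SPL12* to -0.39, *SPL15* to -0.52, *MADS18* to 0.44 and *AGO1d* to -0.59. Median-of-ratios scaling turned *SPL2* to -0.042, its transcript LOC_Os01g69830.1 to -0.033, MSTRG.8436.5 to -0.069, LOC_Os02g07780.2 to -0.075, *SPL6* to -0.14 and *SPL15* to -0.20. The cause was not tested. The count for the microRNA machinery was 1 with this scaling, where *DCL1* and *AGO1d* were both lost and *AGO1a* gained, 1 without a filter, where *DCL1* remained, and 0 to 1 with a library left out. For the miR172 and flowering genes it was 1 with this scaling, and 1 to 4 with a library left out.

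With a library left out, the change ran from -0.025 to 0.27 for *SPL2* and LOC_Os01g69830.1, from -0.089 to 0.44 for MSTRG.8436.4, from -0.36 to 0.54 for MSTRG.8436.5 and from -0.10 to 0.20 for LOC_Os02g07780.2. The difference in share, GLY minus CK in percentage points, ran from 0 to 15.5 for MSTRG.8436.1, from -2.99 to 9.67 for LOC_Os02g04680.1, from -13.6 to 5.84 for LOC_Os02g04680.2, from -15.5 to 2.48 for LOC_Os02g07780.1 and from -17.6 to 8.25 for MSTRG.8661.3.

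Libraries with the same replicate number did not deviate together (correlations of 0.003, 0.010 and 0.006, beside at most 0.017, 0.014 and 0.020 with another number). With 3 libraries in a group, this check cannot exclude that the numbers pair them. With the replicate number as a block the adjusted p of *SPL3* was 0.0595, that of *SPL12* 0.0703, of *GW7* 0.0505, of *SHAT1* 0.0537, of *DCL1* 0.112 and of *AGO1d* 0.0869, so these calls were lost. With it 0 members and 0 machinery genes passed, and the count for the miR172 and flowering genes was 1. The block left 2462 of all entries past the threshold, beside 4816 without it and 0 with the covariate.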

Other observations

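The values below were singled out after they were seen. In some genes of the lists used here, leaf markers included, GLY3 lay apart from the other GLY libraries. The RuBisCO small subunit entry LOC_Os12g19470 had 664.6, 660.2 and 149.7 FPKM in GLY1, GLY2 and GLY3, against 176.5 to 189 FPKM in CK. This entry did not pass, and the 2 more abundant small subunit entries fell, with means of 4541 and 2878 FPKM in GLY, against 7878 and 3935 FPKM in CK. *RSR1*, an AP2 gene of starch synthesis, had 47.5, 49.7 and 27.6 FPKM in GLY, against 24.2 to 25.4 FPKM in CK. Among the *SPL* members, *SPL3* was lowest in GLY3 of the GLY libraries, at 8.29 FPKM, and *SPL11*, *SPL2* and *SPL4* were highest there.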
